A study of Mus musculus with 4 samples.

Results

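The 9 genes described here store, make, break down or sense retinoids, and were measured in mouse lung RNA. They were Lrat, Stra6, Rdh10, Dhrs3, Aldh1a1, Aldh1a2, Aldh1a3, Cyp26b1 and Rarb, 9 of the 47729 genes listed per library and 9 of the 18783 that were tested. They were picked by name with their difference between Sugen-Hypoxic and Normoxic lungs already known, so that difference is given here as a description of each gene and carries no test. The Sugen-Hypoxic libraries came from mice that received Sugen, an inhibitor of VEGF receptors, under hypoxia, a pairing used in rodents to produce pulmonary hypertension. Each of the 2 was a pool of 2 males. The Normoxic libraries were a pool of 3 females (replicate 1) and a pool of 1 female and 2 males (replicate 2). All animals carried the label Control (Rosa) for genotype and BL/6 for strain. The labels give no age, Sugen dose, oxygen level or length of exposure, and no group received Sugen or hypoxia alone. Animals with KCNK3 mutations, which the series is about, were not analysed here.

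Vitamin A circulates as retinol bound to a carrier protein and is stored in cells as retinyl esters. Retinol is oxidised reversibly to retinaldehyde and then irreversibly to retinoic acid, the ligand of the nuclear receptors RAR, and enzymes of the Cyp26 family hydroxylate retinoic acid to inactive products. Retinoic acid induces several genes of its own storage and breakdown, so the pathway feeds back on itself. In lung the pathway is known for its part in the branching of the embryonic lung and in the formation of alveoli, and retinyl esters are stored in fibroblasts of the alveolar wall.

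Gene counts summed to between 57.3 and 67.1 M reads (M, 1e6) per library, and the lowest count of any of the 9 genes in any library was 20 reads. Values are CPM, counts per 1000000 after edgeR's TMM scaling of library sizes. The extraction text names kidneys while the source label is lung. The 10 lung identity genes summed to 33669 and 30581 CPM in Sugen-Hypoxic libraries, against 37308 and 36187 CPM in Normoxic libraries. The 10 kidney markers, of which Slc22a6 and Kap had no read in any library, summed to 0.379 and 0.404 CPM in Sugen-Hypoxic against 0.995 and 0.917 CPM in Normoxic libraries. Across all genes 2163 of 18783 (11.5%) passed edgeR's quasi-likelihood test at an adjusted p of 0.05, with 1035 higher and 1128 lower in Sugen-Hypoxic lungs. The split was 765 and 1584 with library sizes left unscaled, and 799 and 1424 with upper-quartile scaling. Animals were pooled and each group had 2 pools, so p-values measure only the spread between these pools. Sex moved with treatment, and the parts of the 2 cannot be told apart.

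With all 4 libraries, storage and breakdown held the widest differences among the 9 genes. Lrat, the enzyme that esterifies retinol for storage, was at 46.5 and 36.5 CPM in Sugen-Hypoxic replicates 1 and 2, against 221 and 144 CPM in Normoxic replicates 1 and 2. Both treated libraries lay far below both Normoxic libraries, and even the closest pair differed 3.09-fold. The means were 41.5 ± 7.08 CPM in Sugen-Hypoxic and 182 ± 54.3 CPM in Normoxic libraries (SD, n = 2 each), a fitted log2 fold change of -2.13, or 4.39-fold lower. In whole-lung RNA, fewer cells of a type and less RNA per cell cannot be told apart, here or for any gene that follows.

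Cyp26b1, which hydroxylates retinoic acid, differed more. It was at 30.2 and 21.4 CPM in Sugen-Hypoxic lungs, against 238 and 115 CPM in Normoxic lungs. The groups did not overlap, the closest pair differing 3.81-fold, yet the Normoxic pools themselves stood 2.07-fold apart. Its means were 25.8 ± 6.21 CPM in Sugen-Hypoxic and 176 ± 86.7 CPM in Normoxic libraries (SD, n = 2 each), with a log2 fold change of -2.78, or 6.85-fold lower. Without the all-female Normoxic replicate 1 the log2 fold change was -2.16. With the male fraction of each pool as a covariate it was -1.64, that of Lrat was -1.49, and that of Aldh1a3, then the widest of the 9, was 1.74.

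The sequences before the start sites of both genes are shown because the 2 genes had the widest differences with all 4 libraries and the same order of libraries. Each window runs from 250 bases before to 50 bases after the start site of the RefSeq gene, on GRCm38.p6. The Lrat window is chr3:82903925-82904224 and the Cyp26b1 window is chr6:84593761-84594060, and both lie on the minus strand. Capitals mark the core GCGTG, on either strand, that the aryl hydrocarbon receptor is known to contact.
Lrat: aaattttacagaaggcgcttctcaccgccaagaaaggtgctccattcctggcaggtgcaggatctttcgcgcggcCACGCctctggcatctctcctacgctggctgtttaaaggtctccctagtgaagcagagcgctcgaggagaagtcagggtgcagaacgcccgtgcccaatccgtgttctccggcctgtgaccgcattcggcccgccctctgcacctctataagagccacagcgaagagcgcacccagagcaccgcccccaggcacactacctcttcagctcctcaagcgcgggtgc
Cyp26b1: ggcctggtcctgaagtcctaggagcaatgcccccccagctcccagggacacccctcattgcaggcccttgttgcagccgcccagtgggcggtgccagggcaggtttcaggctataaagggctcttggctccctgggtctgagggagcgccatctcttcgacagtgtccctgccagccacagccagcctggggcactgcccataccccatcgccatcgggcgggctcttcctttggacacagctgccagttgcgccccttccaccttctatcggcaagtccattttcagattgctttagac
Lrat held the core once, on the opposite strand, and the Cyp26b1 window held none. The core is common, being present in 32.4% of the 32851 promoter windows of the RefSeq table. Neither window held a direct repeat, of any of the motifs AGGTCA and AGTTCA and also GGGTCA and GGTTCA in any pairing, with a spacer of 5 or 2 bases on either strand, the layouts that retinoic acid receptors are known to bind.

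Lrat was, of 13843 protein-coding genes averaging 1 CPM or more, the one whose pattern over the 4 libraries lay nearest to that of Cyp26b1. The measure was the Euclidean distance between log2 CPM values centred on each gene's own mean, and it was 0.67 for Lrat. Both genes were picked with their low treated values known, and the distance uses those same values. The rank is therefore a description and carries no test. Next came Gzma, a protease of cytotoxic lymphocytes, at 0.75, with 3.14 and 3.71 CPM in Sugen-Hypoxic and 20.5 and 14.5 CPM in Normoxic libraries. Entpd8, a nucleotide-cleaving enzyme, followed at 0.77 with 0.217 and 0.264 CPM in Sugen-Hypoxic and 2.61 and 1.70 CPM in Normoxic libraries.

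Among the enzymes that make retinoic acid the directions were mixed. Aldh1a1, Aldh1a2 and Aldh1a3 oxidise retinaldehyde to retinoic acid. Aldh1a1 was at 881 and 696 CPM in Sugen-Hypoxic lungs, against 847 and 894 CPM in Normoxic lungs, so the groups overlapped. Its log2 fold change was -0.14 with means of 789 ± 131 CPM in Sugen-Hypoxic and 870 ± 32.9 CPM in Normoxic libraries (SD, n = 2 each), and 0.02 without Sugen-Hypoxic replicate 2.

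Aldh1a2, the main retinaldehyde dehydrogenase of the mouse embryo and also a gene of mesothelium, was at 24.5 and 28.0 CPM in Sugen-Hypoxic lungs, against 38.9 and 43.5 CPM in Normoxic lungs. Both treated libraries were lower, and the log2 fold change was -0.65 (26.3 ± 2.42 CPM in Sugen-Hypoxic and 41.2 ± 3.21 CPM in Normoxic, SD, n = 2 each), or 1.57-fold lower. The 10 mesothelial markers summed to 568 and 613 CPM in Sugen-Hypoxic against 647 and 703 CPM in Normoxic libraries. Of these markers 0 rose and 2 fell in edgeR's test, with none at 0 reads, and their part in the Aldh1a2 difference was not tested.

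Aldh1a3, the third of these dehydrogenases, was low in every library and higher in treated lungs. It was at 2.20 and 3.88 CPM in Sugen-Hypoxic replicates 1 and 2, against 0.834 and 0.884 CPM in Normoxic replicates. The treated libraries lay above both Normoxic ones but were 1.76-fold apart from each other. The means of 3.04 ± 1.19 CPM in Sugen-Hypoxic and 0.859 ± 0.0352 CPM in Normoxic libraries (SD, n = 2 each) gave a log2 fold change of 1.82, or 3.54-fold higher, and 1.36 without Sugen-Hypoxic replicate 2. These values rest on 122 and 250 reads in Sugen-Hypoxic and 57 and 53 reads in Normoxic libraries.

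Retinol and retinaldehyde are interconverted by Rdh10, which oxidises retinol and is the rate-limiting step in the mouse embryo, and by Dhrs3, which reduces retinaldehyde back to retinol. Rdh10 was at 30.6 and 32.4 CPM in Sugen-Hypoxic lungs, against 24.2 and 24.9 CPM in Normoxic lungs. The difference was small but the libraries of each group lay close together, and the log2 fold change was 0.36, or 1.28-fold higher. It was 0.31 with upper-quartile scaling and 0.29 with library sizes left unscaled, where Rdh10 was no longer past the threshold of edgeR's test. Dhrs3 was at 110 and 106 CPM in Sugen-Hypoxic lungs, against 124 and 110 CPM in Normoxic lungs. Its groups overlapped, the mixed Normoxic pool and treated replicate 1 lying together, and the log2 fold change of -0.11 turned to 0.07 with the male fraction as a covariate.

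Stra6, a membrane receptor that takes up retinol from its carrier, was barely detected, at 20 and 44 reads in Sugen-Hypoxic and 67 and 26 reads in Normoxic libraries (0.361 and 0.683 CPM in Sugen-Hypoxic, 0.981 and 0.434 CPM in Normoxic). The groups overlapped, and its log2 fold change of -0.43 turned to 0.28 without Normoxic replicate 1 and to 0.86 with the male fraction as a covariate. No direction can be given for it. It overlaps Ccdc33 on the opposite strand, which was at 5.14 and 7.20 CPM in Sugen-Hypoxic against 11.8 and 11.3 CPM in Normoxic libraries.

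**Figure D1:**
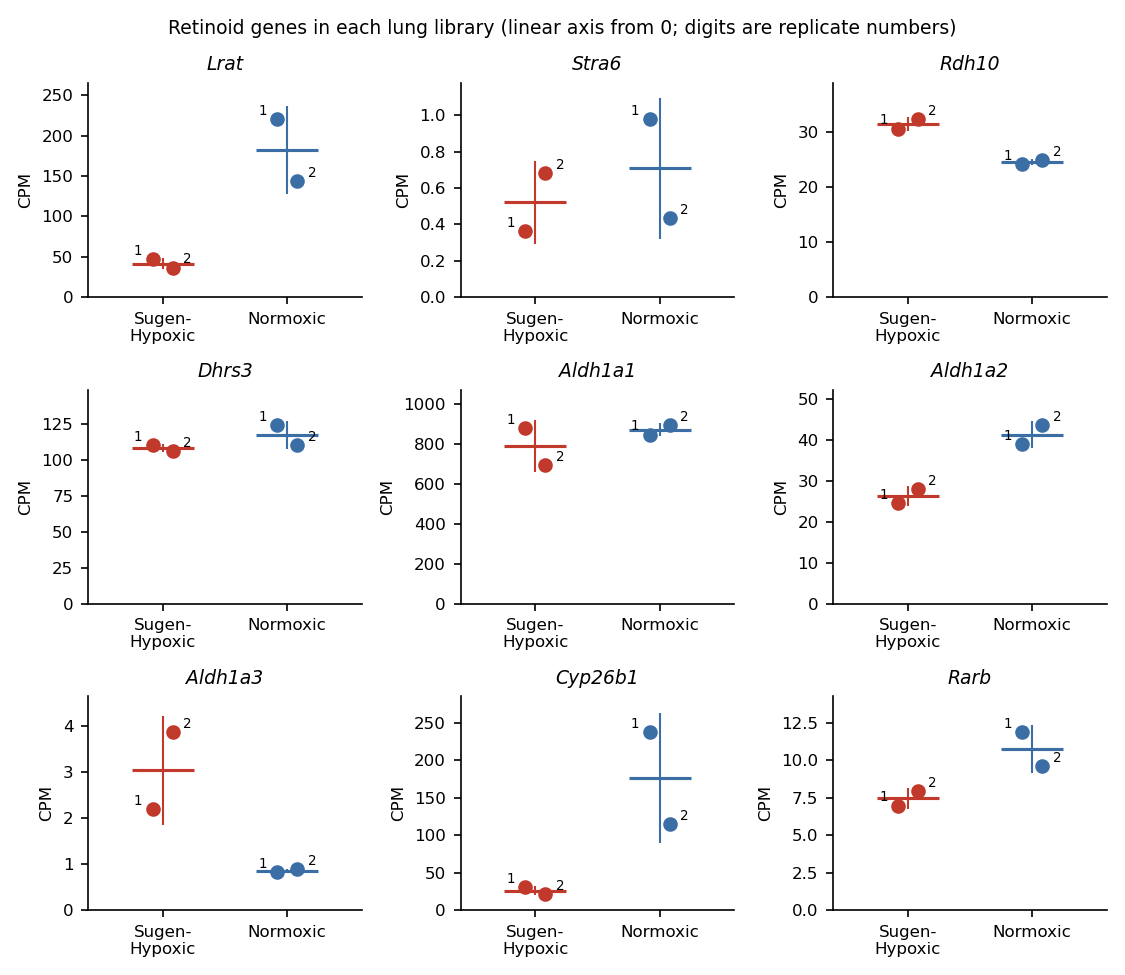
CPM of each of the 9 retinoid genes (linear axes from 0) in the 2 Sugen-Hypoxic libraries (red, left) and the 2 Normoxic libraries (blue, right); points are libraries with their replicate number, horizontal lines means and vertical lines ± SD. Lrat and Cyp26b1 stand far lower in both treated libraries, with Normoxic replicate 1 well above replicate 2, while the groups overlap for Stra6, Dhrs3 and Aldh1a1.

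Rarb encodes a receptor for retinoic acid and is itself induced through a response element in its promoter. Rarb was at 6.97 and 7.93 CPM in Sugen-Hypoxic lungs, against 11.9 and 9.61 CPM in Normoxic lungs. Both treated libraries lay below both Normoxic ones, by 1.21-fold at the closest, and the log2 fold change was -0.53 (7.45 ± 0.684 CPM in Sugen-Hypoxic and 10.7 ± 1.61 CPM in Normoxic, SD, n = 2 each). Its RefSeq promoter window, chr14:16575427-16575726 on the minus strand of GRCm38.p6, is printed with that of Cyp26a1, another Cyp26 enzyme known to be induced by retinoic acid, at chr19:37697558-37697857 on the plus strand. They are shown because each holds the classical element, a direct repeat with a 5-base spacer, in capitals. The Rarb window lies inside the gene as annotated, chr14:16430839-16819156, so its start site is internal to that span. The CPM of Rarb pool all transcripts of the gene.
Rarb: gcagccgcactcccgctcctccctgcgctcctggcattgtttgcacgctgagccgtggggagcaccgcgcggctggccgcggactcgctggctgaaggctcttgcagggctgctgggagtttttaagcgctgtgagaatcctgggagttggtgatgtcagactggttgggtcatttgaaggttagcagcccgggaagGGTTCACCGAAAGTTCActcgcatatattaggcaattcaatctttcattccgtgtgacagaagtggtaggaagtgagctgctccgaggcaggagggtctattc
Cyp26a1: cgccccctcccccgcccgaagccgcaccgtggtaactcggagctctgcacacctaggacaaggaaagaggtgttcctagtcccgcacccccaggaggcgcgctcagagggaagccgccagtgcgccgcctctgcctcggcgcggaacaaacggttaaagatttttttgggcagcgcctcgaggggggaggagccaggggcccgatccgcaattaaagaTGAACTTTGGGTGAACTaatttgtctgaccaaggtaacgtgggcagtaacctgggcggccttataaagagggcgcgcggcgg
In Rarb the repeat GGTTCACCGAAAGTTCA ends 36 bases before the start site. In Cyp26a1 it lies on the opposite strand, where it reads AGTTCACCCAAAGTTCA, and its near end is 15 bases before the start site. Counted from 1 at the 5′ end of the Rarb repeat, the 2 differ by G1A and G9C, the second of them inside the spacer. Such a repeat was present in 32 of 32851 promoter windows (0.0974%), and the same motif pairs with a spacer of 2 bases in 88 (0.268%), none of them in the 9 genes. Of the 9 genes, 7 had an entry in the table and 2, Rdh10 and Aldh1a3, did not. The GCGTG core was present in 3 of the 13 windows of these 7 genes (Lrat, Aldh1a2 and Rarb), against 32.4% of all windows.

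Cyp26a1 itself was close to undetected, with 2 and 4 reads in Sugen-Hypoxic and 2 and 7 reads in Normoxic libraries, and the third family member Cyp26c1 had 2 and 8 reads in Sugen-Hypoxic and 2 and 1 in Normoxic libraries. Neither passed the filter on low counts. Cyp26b1 therefore held 99.3 and 97.5% of the summed Cyp26 level per transcript length in Sugen-Hypoxic libraries and 99.9 and 99.7% in Normoxic libraries. That sum was 18.4 and 13.6 TPM in Sugen-Hypoxic lungs, against 148 and 73.6 TPM in Normoxic lungs (TPM, reads per kilobase of merged exons scaled to a sum of 1000000).

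On this scale the levels of different genes can be set side by side. In Normoxic lungs Aldh1a1 led at 595 ± 32.1 TPM, followed by Dhrs3 at 135 ± 9.35, Lrat at 115 ± 32.3, Cyp26b1 at 111 ± 52.9, Aldh1a2 at 61.5 ± 5.78, Rdh10 at 19.9 ± 0.725, Rarb at 6.88 ± 0.92, Aldh1a3 at 0.628 ± 0.0359 and Stra6 at 0.408 ± 0.217 TPM (SD, n = 2). The neighbours Dhrs3 and Lrat, and Lrat and Cyp26b1, overlapped between libraries, while the other neighbours in this order did not. In Sugen-Hypoxic lungs Lrat was at 25.4 ± 3.82 TPM and Cyp26b1 at 15.8 ± 3.48 TPM, below Aldh1a2 at 38.1 ± 4.27 TPM, and Cyp26b1 also stood below Rdh10 at 24.8 ± 1.51 TPM. The 3 Aldh1a genes summed to 614 and 513 TPM in Sugen-Hypoxic against 630 and 684 TPM in Normoxic libraries, and Aldh1a1 made up 94.0 and 91.4% of the sum in Sugen-Hypoxic and 90.8 and 90.3% in Normoxic libraries.

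**Figure D2:**
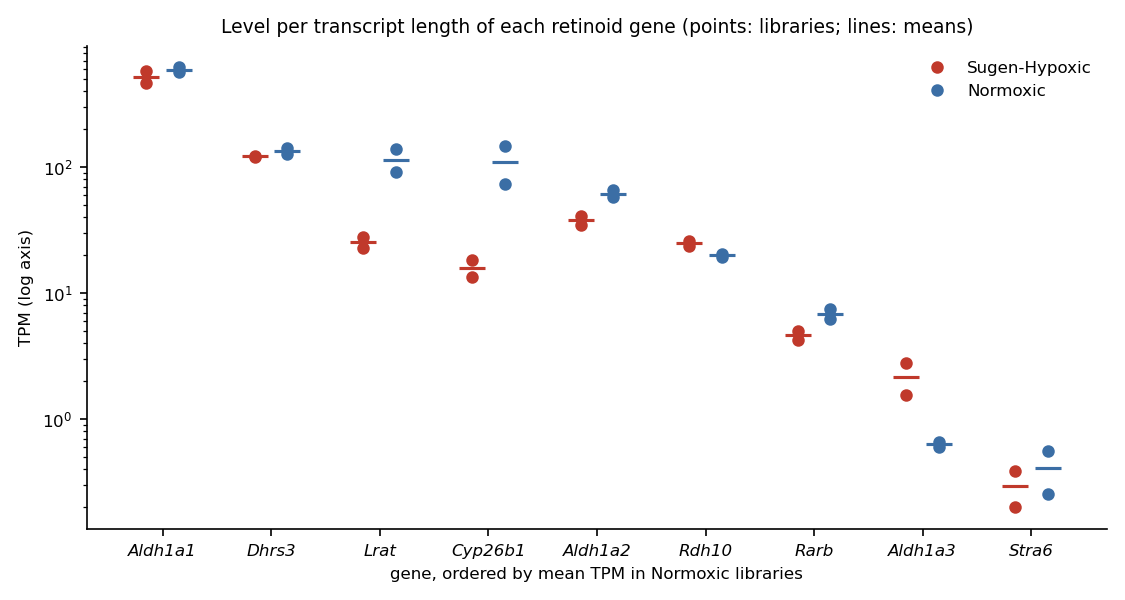
TPM (log axis) of the 9 retinoid genes, ordered by mean TPM in Normoxic libraries; red points are Sugen-Hypoxic and blue points Normoxic libraries, and lines are means. Lrat and Cyp26b1 stand near Dhrs3 in Normoxic lungs, at 115 and 111 TPM, and below Aldh1a2 in Sugen-Hypoxic lungs, at 25.4 and 15.8 TPM.

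In all, 2 of the 9 genes (Rdh10 and Aldh1a3) were past the threshold of edgeR's test as higher and 3 (Lrat, Aldh1a2 and Cyp26b1) as lower in Sugen-Hypoxic lungs, against 5.51% and 6.01% of all genes tested. Since the genes were chosen with these values known, the count says nothing further about them. In 6 of the 9 the libraries of the groups did not overlap, against 61.7% of all genes tested; in 2 the treated ones lay above (30.0% of all genes) and in 4 below (31.7%). Left-out libraries moved the calls. Each such fit leaves an arm of 1 library, which is assumed to vary like the remaining pair, and the counts are many where the Normoxic pair remains and few where the Sugen-Hypoxic pair does. None of the 9 was past the threshold without Normoxic replicate 1 (5 at an unadjusted p under 0.05 in edgeR), and Lrat and Cyp26b1 alone were without Normoxic replicate 2. Without Sugen-Hypoxic replicate 1 or 2, 6 and 6 were. With the male fraction as a covariate none was, and 3 had an unadjusted p under 0.05. In that fit 0.0586% of all genes tested passed. Its sex term rests on the Normoxic pools alone, since the treated pools were all male. The loss of calls there is no result about these genes. With all libraries DESeq2 called 6 of the 9, against 17.3% of all genes, and limma-voom called 5, against 11.5%.

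**Figure D3:**
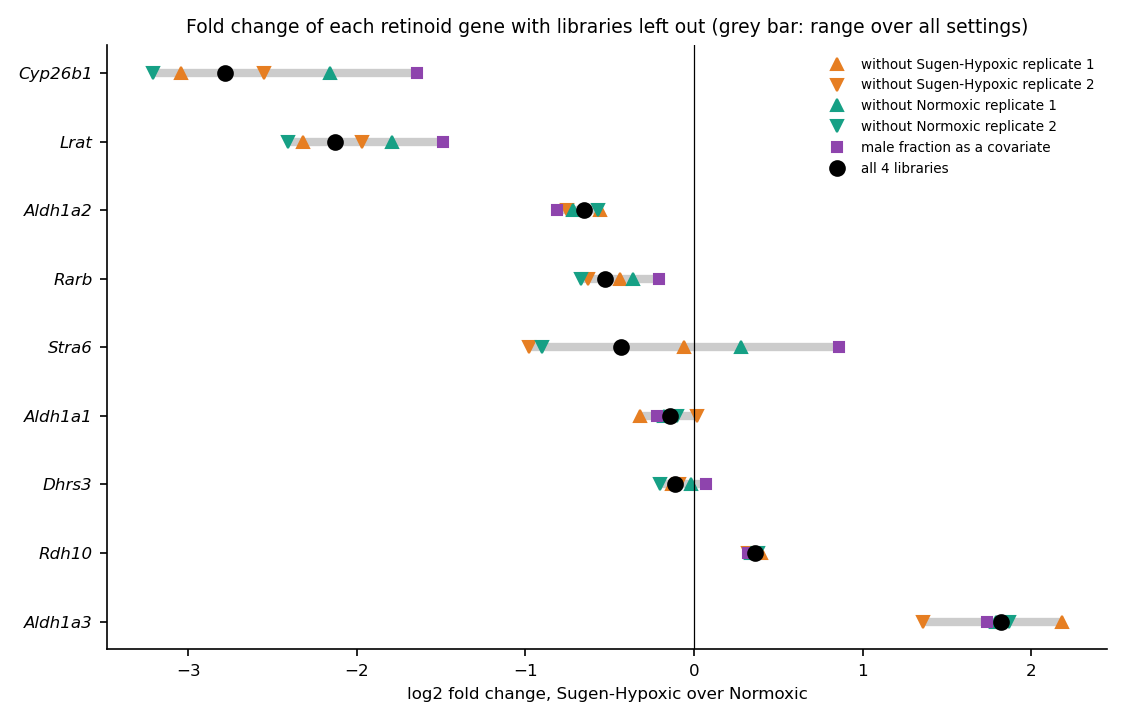
Log2 fold change of each of the 9 retinoid genes, Sugen-Hypoxic over Normoxic, with all 4 libraries (black), with each library left out (triangles) and with the pool's male fraction as a covariate (squares); grey bars span every setting tried. Cyp26b1 ranges from -3.21 to -1.64 and Lrat from -2.41 to -1.49, and Stra6, Aldh1a1 and Dhrs3 cross 0.

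The Normoxic pools differed from each other in these genes as well. Lrat, Stra6, Dhrs3, Cyp26b1 and Rarb were higher in the all-female pool than in the mixed pool, 5 genes in all. The other 4, Rdh10, Aldh1a1, Aldh1a2 and Aldh1a3, were higher in the mixed pool. No share of all genes was computed for either direction, so this split is no result about the 9 genes. Stra6 rests on 67 and 26 reads and Aldh1a3 on 57 and 53 reads in Normoxic replicates 1 and 2. Genes outside the 9 that are known to respond to retinoic acid went both ways between these replicates. Hoxa5 was at 47.3 and 53 CPM and Hoxb5 at 18.3 and 19.3 CPM, while Cd38 was at 62.4 and 52.8 CPM and Ret at 5.43 and 4.54 CPM. Tgm2 was at 634 CPM in both. Among 10462 genes averaging 10 CPM or more, the median gap between the Normoxic pools was 0.06 on the log2 scale. For Cyp26b1 the gap was 1.05, and 16 of those genes, itself included, had one as large (0.153%). The 15 with larger gaps were the Y-linked Kdm5d, Eif2s3y, Uty and Ddx3y, the X-inactivation RNA Xist, Cyp1a1 and Ahrr, both known targets of the aryl hydrocarbon receptor, and Clca1, Reg3g, Bpifb1, Bpifa1, Ppbp, Tubb1, Ighg2c and Hspa1b, which include airway secretory, platelet, antibody and heat shock genes. Cyp1a1 was at 3021 and 2240 CPM in Sugen-Hypoxic libraries, against 50.4 and 7.12 CPM in Normoxic libraries. The gap of Lrat was 0.62, and 37 genes, again itself included, had one as large (0.354%), and that of Dhrs3 was 0.17. That of Aldh1a2 was -0.16, similar in size to that of Dhrs3 (as large in 12.8% and 10% of those genes). The gaps of Rdh10 at -0.04 (65%) and Aldh1a1 at -0.08 (40.9%) were nearer to the median. The Sugen-Hypoxic pools, all male, also differed, with gaps of 0.50 for Cyp26b1 (as large in 3.48% of those genes) and 0.35 for Lrat (7.84%), where the median was 0.10. In the Normoxic pools the share of females moves with these values, and so does any other difference between the pools; their part was not tested.

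The genes on either side of Cyp26b1 and Lrat had smaller differences. Exoc6b, 24578 bases beyond Cyp26b1 and a subunit of the exocyst, was at 68.8 and 65.2 CPM in Sugen-Hypoxic against 63.7 and 64.4 CPM in Normoxic lungs (log2 fold change 0.06, adjusted p = 0.505 in edgeR's test). On the other side Dysf, a membrane repair gene, rose by 0.46 (adjusted p = 0.038). Rbm46, beside Lrat, had a log2 fold change of -0.42 (adjusted p = 0.208) and Fgg one of 0.60 (adjusted p = 0.528). Of the 18 nearest protein-coding neighbours of the 9 genes 16 were tested, 1 rose and 2 fell.

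Reads on the opposite strand, which the choice of genes did not use, were few. They made up under 2% of the reads of 6 of the 9 genes in every library, where the median over tested genes was 1.12%. For Cyp26b1 they numbered 6 and 10 in Sugen-Hypoxic against 124 and 88 in Normoxic libraries, shares of 0.358 and 0.720% in Sugen-Hypoxic and 0.758 and 1.26% in Normoxic. For Aldh1a3 they made up 11.6 and 2.72% in Sugen-Hypoxic and 21.9 and 25.4% in Normoxic libraries, and no annotated gene of the opposite strand overlaps it. A share over 5% was seen in 17.5% of all tested genes.

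Beyond the 9 genes, 93 others of the pathway were looked up and 70 passed the filter on low counts. Of these 6 rose and 8 fell in edgeR's quasi-likelihood test, 20.0% of the 70 against 11.5% of all genes, and their median log2 fold change was -0.03. With the filter at a mean of 1 CPM the same 14 pathway genes were called, against 15.1% of all genes tested. The lists were chosen with earlier results of these data known, so the share is a description and carries no test. All 14 calls were lost without either Normoxic replicate (17 and 18 of the 70 then had an unadjusted p under 0.05) and with the male fraction as a covariate (11), and each of the 14 kept its direction in all alternatives run.

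In the step from retinol to retinaldehyde and back, 0 of 15 tested dehydrogenases and reductases rose and 3 fell in edgeR's test. DESeq2 also called Akr1b8, an aldo-keto reductase, as higher, and so did edgeR without an expression filter or without either Sugen-Hypoxic replicate. Akr1b8 was at 25.1 and 39.3 CPM in Sugen-Hypoxic lungs, against 19.6 and 18.6 CPM in Normoxic lungs (0.75 ± 0.21 on the log2 scale, adjusted p = 0.073 in edgeR's test with all libraries). Adh1, a cytosolic alcohol dehydrogenase that oxidises retinol, fell to 68.9 and 73.0 CPM in Sugen-Hypoxic lungs, against 119 and 123 CPM in Normoxic lungs, -0.77 ± 0.06 on the log2 scale (fold change ± SE; adjusted p = 0.00468 in edgeR's test). The libraries of each group lay within a few CPM of each other. Rdh12, a retinaldehyde reductase of the retina, and Dhrs9, a retinol dehydrogenase, were at low levels and fell by 0.98 ± 0.19 (adjusted p = 0.0314) and 0.77 ± 0.17 (adjusted p = 0.0443) on the log2 scale in edgeR's test. The more abundant Akr1b3, an aldose reductase, and Dhrs7 were at 0.00 ± 0.06 and -0.07 ± 0.07.

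Aldh1a7, an Aldh1a1 relative that lies next to it on chromosome 19, fell by 0.25 ± 0.05 (adjusted p = 0.0408 in edgeR's test). This was the 1 call among 3 tested genes listed under retinaldehyde oxidation outside the main 3. Whether Aldh1a7 oxidises retinaldehyde cannot be told from its RNA. Aldh1a7 was at 77.4 and 78.3 CPM in Sugen-Hypoxic against 91.0 and 94.3 CPM in Normoxic lungs. Aldh1a1 and Aldh1a7 are close copies and multimapping reads stayed out of the gene counts, so the level of each is uncertain. The aldehyde oxidases Aox1 and Aox3 had log2 fold changes of -0.22 ± 0.09 and -0.14 ± 0.10.

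Cyp2s1, a cytochrome P450 whose human form has been reported to metabolise retinoic acid, fell to 98.1 and 91.6 CPM in Sugen-Hypoxic lungs, against 154 and 152 CPM in Normoxic lungs. The groups lay well apart, with a log2 fold change of -0.69 ± 0.06 (adjusted p = 0.00559 in edgeR's test). It was the single tested gene of breakdown besides Cyp26b1. The 6 club cell markers, airway epithelial genes, summed to 13917 and 11205 CPM in Sugen-Hypoxic against 18481 and 18024 CPM in Normoxic libraries (0 rose, 3 fell, none at 0 reads). The 8 ciliated cell markers summed to 1411 and 1328 CPM in Sugen-Hypoxic against 1840 and 1948 CPM in Normoxic libraries (0 rose, 8 fell, none at 0 reads). Their part in the falls of Adh1, Aldh1a7 and Cyp2s1 was not tested.

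In uptake and binding 1 of 11 tested genes passed in edgeR's test and 2 in DESeq2, which also called Stra6l as higher. Stra6l was at 2.04 and 4.11 CPM in Sugen-Hypoxic lungs, against 1.26 and 1.4 CPM in Normoxic lungs (1.21 ± 0.38 on the log2 scale, adjusted p = 0.0968 in edgeR's test). Scarb1, a lipoprotein receptor that also takes up carotenoids, rose to 136 and 144 CPM in Sugen-Hypoxic lungs, against 111 and 106 CPM in Normoxic lungs (0.37 ± 0.06 on the log2 scale, adjusted p = 0.0209 in edgeR's test). Lpl, a lipase, and Fabp5, a fatty acid binding protein that also carries retinoic acid, had log2 fold changes of 0.32 ± 0.21 and -0.22 ± 0.24, both with wide treated pairs. None of 9 genes of retinyl ester synthesis and hydrolysis passed in edgeR's test, with 4 at an unadjusted p under 0.05, 1 called by DESeq2 and 0 by limma-voom. The most abundant, the lipases Ces1d and Pnpla2, were at -0.08 ± 0.18 and -0.18 ± 0.06.

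Among 16 receptors and co-regulators 1 rose and 1 fell. Ppard, a nuclear receptor for which retinoic acid carried by Fabp5 has been described as a ligand, rose to 63.1 and 57.7 CPM in Sugen-Hypoxic lungs, against 43.2 and 40.8 CPM in Normoxic lungs (0.52 ± 0.07, adjusted p = 0.0139 in edgeR's test). Ncoa1, a co-activator of nuclear receptors, fell by 0.24 ± 0.05 (adjusted p = 0.0401). The co-repressor Ncor1 was at -0.01 ± 0.06 on the log2 scale and did not pass.

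Genes known to respond to retinoic acid moved both ways, 4 of 15 higher and 2 lower. Ret, a receptor kinase, rose to 19.3 and 14.3 CPM in Sugen-Hypoxic lungs, against 5.43 and 4.54 CPM in Normoxic lungs, a log2 fold change of 1.75 ± 0.18 (adjusted p = 0.00774 in edgeR's test) that was 1.04 when reads of both strands were counted together. Rarres1, named for its response to retinoic acid receptors, rose to 3.19 and 3.31 CPM in Sugen-Hypoxic lungs, against 0.995 and 0.801 CPM in Normoxic lungs (1.85 ± 0.24, adjusted p = 0.0125). Both genes had their treated libraries well above the Normoxic ones. Hoxa5, a patterning gene needed for lung development, rose by 0.73 ± 0.13 (adjusted p = 0.0287) and the homeobox gene Meis2 by 0.52 ± 0.07 (adjusted p = 0.0147). Their relatives went the other way. Hoxb5 fell by 0.90 ± 0.10 (adjusted p = 0.00973) and Meis1 by 0.57 ± 0.07 (adjusted p = 0.00947) in the same edgeR fit. Tgm2, a transglutaminase, and Rarres2, the gene of chemerin, were at 0.29 ± 0.07 and -0.25 ± 0.09 and did not pass in edgeR's test. Tgm2 passed in DESeq2, in limma-voom, with unstranded counts, without an expression filter and without either Sugen-Hypoxic replicate.

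**Figure D4:**
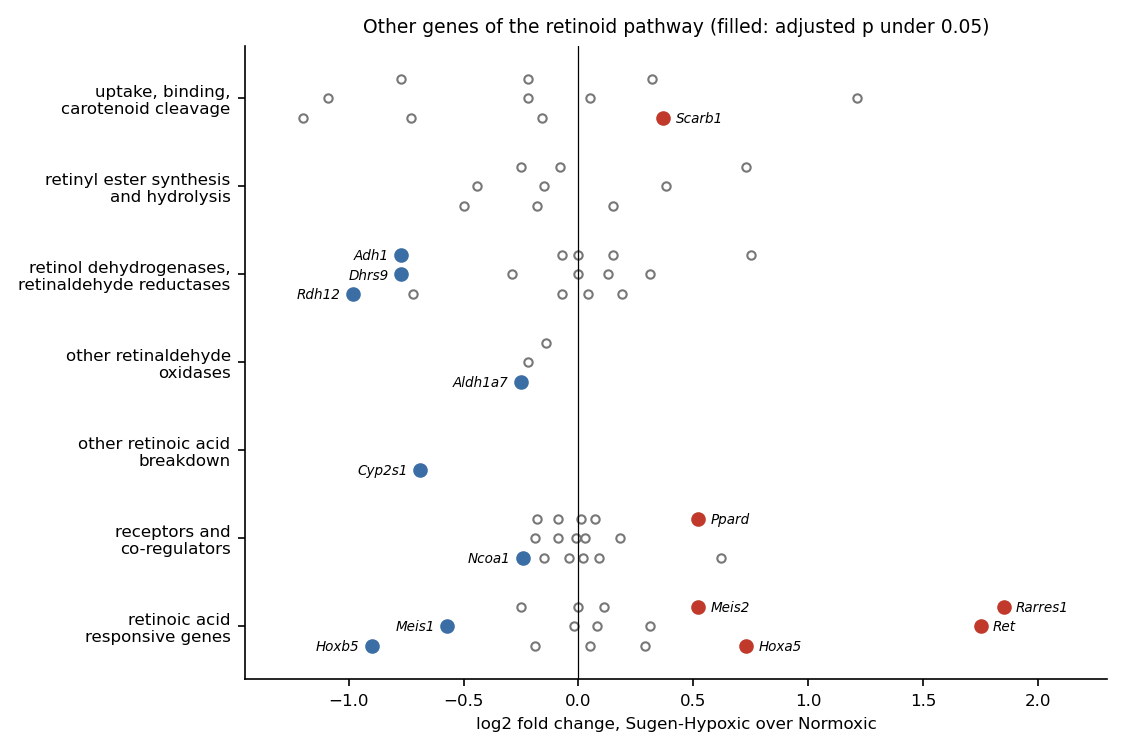
Log2 fold change, Sugen-Hypoxic over Normoxic, of the 70 tested retinoid pathway genes other than the 9, by role; filled points passed edgeR's test (6 higher in red, 8 lower in blue), and open points did not. In this fit the calls in the lists of dehydrogenases and reductases, of retinaldehyde oxidation and of breakdown are lower. The genes responsive to retinoic acid are called in both directions.

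Markers of cell types that could carry these genes moved in some lists and not in others. The 8 pericyte markers summed to 1259 and 1115 CPM in Sugen-Hypoxic against 902 and 933 CPM in Normoxic libraries (4 rose, 0 fell), and the 10 capillary endothelial markers to 2815 and 2453 CPM in Sugen-Hypoxic against 3383 and 3278 CPM in Normoxic libraries (2 rose, 6 fell). Of the 10 large vessel and lymphatic endothelial markers 4 rose and 1 fell. Their sums were 1447 and 1309 CPM in Sugen-Hypoxic against 1493 and 1383 CPM in Normoxic libraries. The 10 markers of alveolar fibroblasts and lipofibroblasts, the cells known to store retinyl esters, summed to 5209 and 4069 CPM in Sugen-Hypoxic against 5210 and 5192 CPM in Normoxic libraries (1 rose, 1 fell). Adventitial fibroblast markers, 8 in all, summed to 638 and 695 CPM in Sugen-Hypoxic against 541 and 572 CPM in Normoxic libraries (2 rose, 1 fell). The 9 lymphocyte markers summed to 66.9 and 82.1 CPM in Sugen-Hypoxic against 190 and 172 CPM in Normoxic libraries (0 rose, 8 fell). The 10 macrophage and dendritic cell markers summed to 2130 and 5204 CPM in Sugen-Hypoxic against 1212 and 1079 CPM in Normoxic libraries (1 rose, 0 fell). For the 9 smooth muscle and myofibroblast markers the sums were 1298 and 1377 CPM in Sugen-Hypoxic against 924 and 1030 CPM in Normoxic libraries (4 rose, 1 fell). None of these lists had a marker at 0 reads in all libraries, and their part in the differences of Lrat and Cyp26b1 was not tested.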

How the data were processed

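Whole-lung RNA was measured in 2 Sugen-Hypoxic and 2 Normoxic libraries. The authors deposited raw read counts per gene. STAR 2.5.1b, HTSeq and GRCm38.p4 are named in the submitters' processing notes. The gene annotation is not given in the sources used here. Column 4 of the counts deposited per library was used, because it held 20.9 to 24.9 times the counts of the opposite strand. Unmapped, multimapping, unassigned and ambiguous reads (6.45 to 7.55%, 4.5 to 4.54%, 7.73 to 9.98% and 1.1 to 1.13%) stayed out. Of 47729 identifiers 47310 matched GENCODE M21 (GRCm38), the source of symbols, coordinates and merged exon lengths. Genes were kept by filterByExpr (18783), scaled by TMM and tested with edgeR 4.0.16 (glmQLFit, glmQLFTest; R 4.3.3), two-sided, with group as the only term and Benjamini-Hochberg adjustment. SEs derive from the F statistic. The test was tried on simulated data, where more of its calls were false than the threshold allows and many 1.5-fold changes were missed. DESeq2 1.42.0, limma 3.58.1 (voom), other scalings and filters, unstranded counts, the male fraction and left-out libraries were alternatives. Members, lists and tests were chosen with earlier results of these data known. Named beside the 9 genes were all called pathway genes, the 2 most abundant uncalled per list (1 gene is not reported here), the 3 genes nearest to Cyp26b1, and neighbours. Other genes with their own values were named after those were seen. Replicate numbers follow record order and pair no samples.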

Additional observations from a re-analysis of the deposited data

Results flagged for a closer look

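Reads on the strand opposite to Rarb were higher in both treated libraries, at 0.722 and 0.606 CPM in Sugen-Hypoxic against 0.512 and 0.367 CPM in Normoxic libraries, the reverse of Rarb itself. They rest on 40 and 39 reads in Sugen-Hypoxic and 35 and 22 reads in Normoxic libraries. They were noted because this column of the files entered no test, and Rarb was the 1 gene of the 9 with both treated values above both Normoxic ones and over 3 reads in each treated library. The same held for 6.21% of all genes tested, so 1 of 9 is no result about these genes. Top2b overlaps Rarb on that strand, at 185 and 191 CPM in Sugen-Hypoxic against 184 and 180 CPM in Normoxic libraries, and its part was not tested.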

How the results depend on the processing

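No paired analysis was possible because the labels carry no replicate numbers shared between groups. With all libraries 1035 genes were higher and 1128 lower in Sugen-Hypoxic lungs. Without an expression filter the counts were 1775 and 1882, with DESeq2 1651 were higher, and with the male fraction as a covariate 4 and 7. With a library left out they ran from 14 to 2623 higher and 6 to 2442 lower. Of the 9 retinoid genes 2 were called higher and 3 lower, against 1 higher with library sizes left unscaled and 0 and 0 with the male fraction; with a library left out, 0 to 2 and 0 to 4. Of the other pathway genes 6 were called higher and 8 lower. Without a filter and with DESeq2 11 were higher, and with the male fraction 0 and 0; with a library left out, 0 to 14 and 0 to 17. Small log2 fold changes of uncalled genes changed sign: Fabp5 was at 0.05 with the male fraction and at -0.65 to 0.10 with a library left out, Aox3 at 0.07 with the male fraction, and Ncor1 at 0.02 with the male fraction and -0.03 to 0.02 with a library left out. Ces1d was at -0.39 to 0.17 and Dhrs7 at -0.14 to 0.01 with a library left out. Akr1b3 was at -0.05 with upper-quartile scaling, -0.06 with unscaled sizes, -0.00 with a filter at a mean of 1 CPM, -0.03 with the male fraction and -0.03 to 0.04 with a library left out. The cause was not tested. Of 116 alternative values for the 9 genes 12 moved by more than the spread between replicates, and of the called genes none changed sign. Stra6 had no value with the filter at a mean of 1 CPM. Stra6 rests on 20 to 67 reads.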
